A study of Mus musculus with 24 samples.

Results

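The genes described here are 52 antioxidant, glutathione and NRF2 genes, measured in mouse lung parenchyma. They were taken by symbol: a probe belonged to the set when its gene symbol in the annotation deposited with the arrays was a listed member. Of the 52 genes, 51 had at least 1 probe, which gave 80 probes of the 25697 in the value table. Gsr, glutathione reductase, had no probe of that symbol and was not analysed here. A probe was tested when it lay above a background limit of log2 intensity 7.94 on at least 3 arrays, which left 75 probes of 50 members among 18224 tested probes. The tested probes of a gene are numbered from its brightest, and every level below is a log2 intensity.

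RNA came from 24 mice, 1 array per mouse, in 4 groups of 6. The groups were AIRmax mice given urethane, AIRmax mice given saline, AIRmin mice given urethane and AIRmin mice given saline, each with 3 mice labelled female and 3 labelled male. The lines come from selective breeding on the strength of acute inflammation, strong in AIRmax and weak in AIRmin. Urethane, ethyl carbamate, is used in mice to raise lung tumours. It was injected into the peritoneum at 1 mg per g of body weight, 2 times with 48 h between the injections, and the saline groups were injected with saline in its place. Lungs were taken at 21 days, as normal parenchyma, and ages are not given in the sources used here.

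NRF2, the product of Nfe2l2, is a transcription factor that KEAP1 holds back by marking it for degradation. When electrophiles or oxidants modify KEAP1, NRF2 accumulates, pairs with small MAF proteins and binds antioxidant response elements in front of genes for glutathione synthesis, conjugation, quinone reduction and peroxide removal. In the lung these enzymes act in airway and alveolar epithelium on inhaled oxidants and on activated carcinogens, and catalase, superoxide dismutases, peroxidases and peroxiredoxins remove the oxidants themselves.

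The arrays held other tissues beside lung. Club cell, alveolar type 2 and endothelial markers were above the background limit on all 24 arrays, with medians of 16.04 for Scgb1a1, 15.99 for Sftpc and 14.41 for Pecam1. A score over 13 measured genes of stratified squamous epithelium, such as the keratin Krt13, exceeded 1 on 10 arrays. Krt13 itself ranged from 7.28 to 15.88 and was above the background limit on 10 arrays. They were those of 2 AIRmax urethane, 1 AIRmax saline, 2 AIRmin urethane and 5 AIRmin saline mice. Over 11 skeletal muscle genes the score had a median of -1.04 in AIRmax urethane, -1.98 in AIRmax saline, 0.64 in AIRmin urethane and 1.92 in AIRmin saline mice. Over 5 hepatocyte genes the score was 5.86 in 1 AIRmax urethane mouse, number 4, and at most 0.556 on the other arrays. In 1 AIRmin saline mouse labelled female, number 20, Xist lay at 7.91, against 10.46 to 12.34 in the other 11 mice labelled female and 7.74 to 8.06 in the 12 labelled male. In bulk RNA, fewer cells of a type and less RNA per cell cannot be told apart.

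The promoters below are shown because they belong to members called between the lines, 2 of them higher in AIRmax mice (Srxn1, Cat) and 2 lower (Gstm5, Nqo1). Each runs from 250 bases before to 50 after the gene's start in RefSeq, mouse build GRCm38.p6, 5′ to 3′ on the gene's strand. Capitals mark matches on either strand to TGACNNNGC, the core letters of the antioxidant response element, or to TGAGNNNGC, a variant of them. The letters shown are of the reference genome, not of the AIRmax or AIRmin lines.
Srxn1 (chr2:152105274-152105573, plus strand): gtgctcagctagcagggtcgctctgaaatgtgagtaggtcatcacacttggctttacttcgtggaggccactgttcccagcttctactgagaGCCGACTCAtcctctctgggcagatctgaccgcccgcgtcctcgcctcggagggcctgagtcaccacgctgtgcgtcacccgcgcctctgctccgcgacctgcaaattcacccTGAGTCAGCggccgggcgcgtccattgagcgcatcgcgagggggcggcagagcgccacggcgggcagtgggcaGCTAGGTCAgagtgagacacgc
Cat (chr2:103485104-103485403, minus strand): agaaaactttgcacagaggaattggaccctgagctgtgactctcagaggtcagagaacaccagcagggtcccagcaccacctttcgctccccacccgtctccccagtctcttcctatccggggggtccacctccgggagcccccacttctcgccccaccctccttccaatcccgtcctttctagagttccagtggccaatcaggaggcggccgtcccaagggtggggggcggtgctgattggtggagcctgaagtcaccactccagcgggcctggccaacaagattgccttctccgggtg
Gstm5 (chr3:107895604-107895903, plus strand): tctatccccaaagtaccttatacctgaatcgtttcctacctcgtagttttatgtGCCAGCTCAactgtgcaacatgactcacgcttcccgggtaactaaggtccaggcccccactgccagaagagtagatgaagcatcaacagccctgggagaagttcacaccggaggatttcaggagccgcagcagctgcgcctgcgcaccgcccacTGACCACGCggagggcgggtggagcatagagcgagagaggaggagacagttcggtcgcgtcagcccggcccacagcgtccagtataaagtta
Nqo1 (chr8:107403156-107403455, minus strand): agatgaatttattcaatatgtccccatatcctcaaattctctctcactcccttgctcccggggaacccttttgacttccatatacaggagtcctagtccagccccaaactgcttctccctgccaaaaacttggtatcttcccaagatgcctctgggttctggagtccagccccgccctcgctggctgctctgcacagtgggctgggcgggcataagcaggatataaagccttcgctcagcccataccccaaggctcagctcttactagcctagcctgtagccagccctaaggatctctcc

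Srxn1 had 3 matches in this window, Gstm5 had 2, and Cat and Nqo1 had none. They are 4 of the 10 called members with a promoter at hand, and of those 10 only Srxn1 and Gstm5 had a match and 8 had none. Promoters were found for 45 of the 52 members, 58 promoters in all. One of these motifs occurred in 27.6% of them, against 27.8% of all 32851 promoters of this length. TGACNNNGC occurred in 11 and TGAGNNNGC in 8 of the members' 58 promoters, and in 12.4% and 17.6% of all promoters. A match describes the letters in this window and no more.

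The members differed between the lines in both directions. In AIRmax mice Cat, Srxn1 and Gpx3 were higher and 9 genes were lower, namely Gsta2, Gsto1, Gsta4, Mgst2, Hmox1, Nqo1, Gstm5, Gstm2 and Txnrd2. Over all 24 mice 13 of the 75 member probes passed an adjusted p of 0.05, which is 17.3%, against 13.3% of all tested probes. Of them 4 probes were higher in AIRmax, where 6.67% of all probes were, and 9 were lower, where 6.65% were. The median difference over the 75 probes was -0.05, against -0.00 over all tested probes. At an unadjusted p under 0.05 there were 29 member probes, 38.7% of those tested, against 27.7% of all probes.

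**Figure D1:**
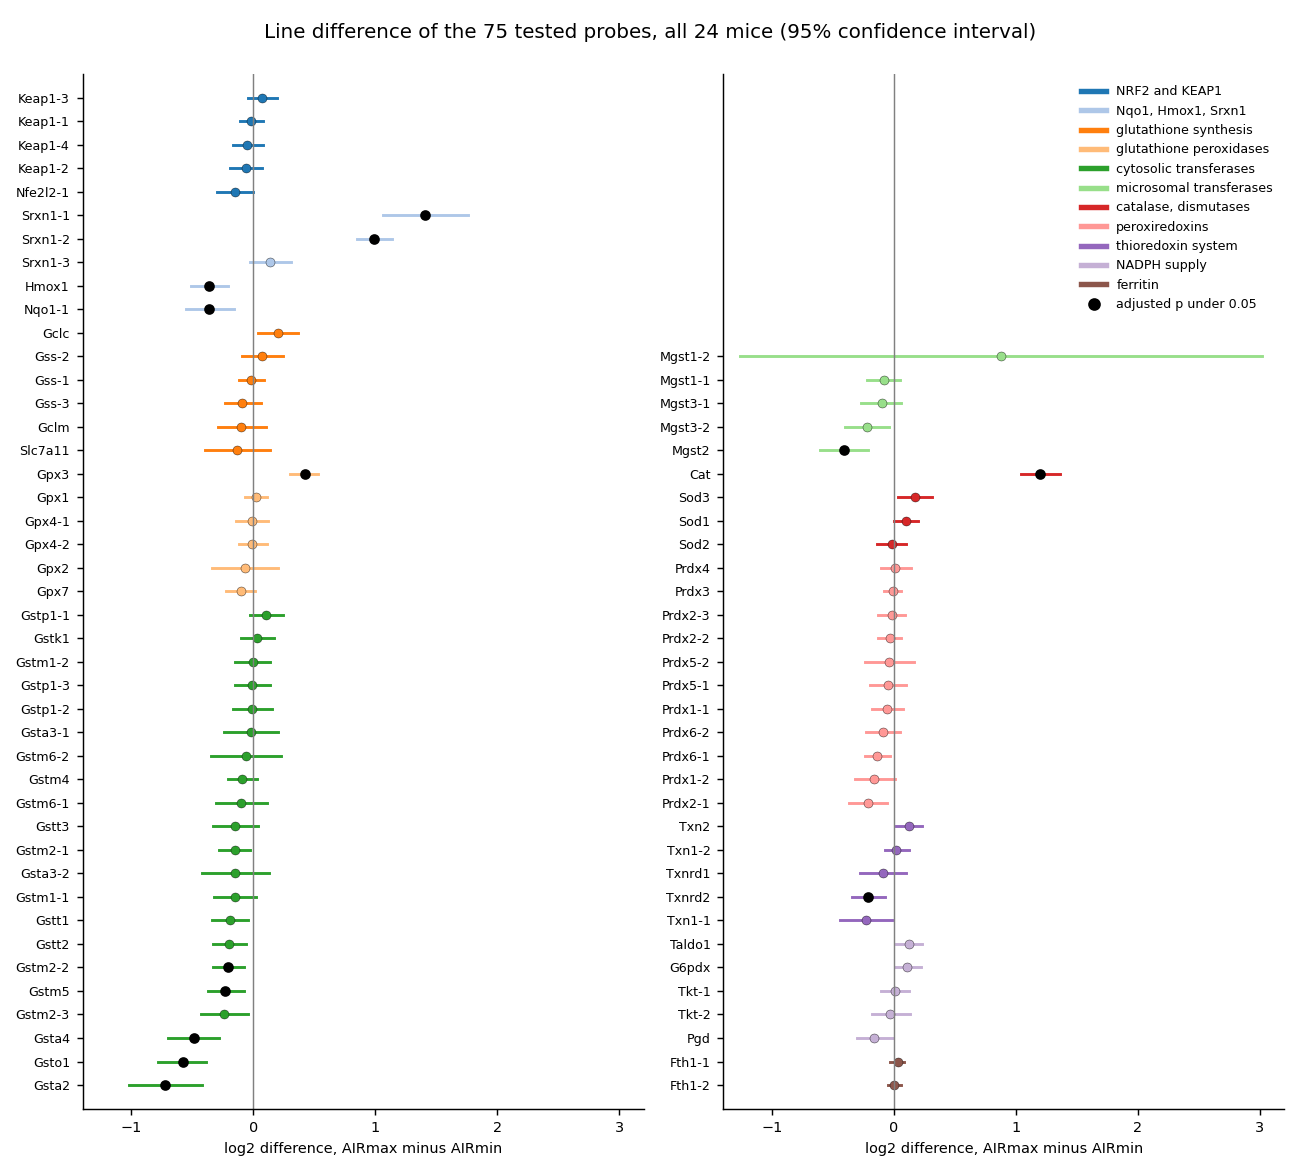
Line difference (log2, AIRmax minus AIRmin) of the 75 tested member probes over all 24 mice, with 95% confidence intervals, coloured by role; black points passed an adjusted p of 0.05. Cat and the first and second Srxn1 probes lie between 0.99 and 1.41, and Mgst1 probe 2 has the widest interval. The transferases outside the microsomal family, labelled cytosolic although they include Gstk1, lie mostly left of 0.

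Catalase, which splits hydrogen peroxide into water and oxygen, was the member that best separated the lines. Cat lay at 13.21 to 14 in the 12 AIRmax mice, with a median of 13.55, against 12.08 to 12.72 in the 12 AIRmin mice, with a median of 12.37. The lowest AIRmax mouse was therefore above the highest AIRmin mouse. Among the 75 member probes only Cat parted the lines in this way, as 0.549% of all tested probes did. Its mean was 13.57 ± 0.22 in AIRmax and 12.37 ± 0.21 in AIRmin (SD, n = 12 each), a log2 difference of 1.20 ± 0.08 (SE), or 2.30-fold, with an adjusted p of 3.35e-09.

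Cat differed between the lines under both treatments. In urethane mice it lay at 13.42 to 14 in AIRmax (median 13.63), against 12.08 to 12.56 in AIRmin (median 12.24), a difference of 1.42 ± 0.11 (adjusted p = 1.11e-07). In saline mice it lay at 13.21 to 13.60 in AIRmax (median 13.46), against 12.18 to 12.72 in AIRmin (median 12.45), a difference of 0.98 ± 0.11 (adjusted p = 1.06e-05). All 3 calls for Cat were kept under each of the 35 alternatives.

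The superoxide dismutases, which turn superoxide into hydrogen peroxide, did not pass the test between the lines. Sod1, the cytosolic copper and zinc enzyme, differed by 0.10 ± 0.05 (adjusted p = 0.175), and Sod2, the mitochondrial manganese enzyme, by -0.02 ± 0.06 (adjusted p = 0.884). Sod3, the extracellular enzyme, had a median of 12.36 in AIRmax and 12.09 in AIRmin mice and a difference of 0.17 ± 0.07 (adjusted p = 0.106). Without AIRmax urethane mouse 4, Sod3 passed, with a difference of 0.21 and an adjusted p of 0.0182. With array weights it also passed (0.196, limma adjusted p = 0.0201).

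Among the glutathione peroxidases, which reduce peroxides with glutathione, Gpx3 was higher in AIRmax mice. Gpx3, the secreted plasma form, lay at 15.48 to 15.92 in AIRmax mice (median 15.61), against 14.75 to 15.67 in AIRmin mice (median 15.31). The ranges overlapped, with 5 of 12 AIRmax mice above every AIRmin mouse. The difference was 0.42 ± 0.06, with an adjusted p of 3.96e-05. Gpx1, Gpx2, Gpx4 and Gpx7 differed by -0.10 to 0.02 and did not pass.

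Srxn1, sulfiredoxin, which restores overoxidized peroxiredoxins, was higher in AIRmax by 2 of its 3 probes. Probe 1 lay at 10.46 to 11.09 in AIRmax mice (median 10.80), against 8.34 to 10.72 in AIRmin mice (median 9.28), a difference of 1.41 ± 0.17 (adjusted p = 1.04e-05). Probe 2 lay at 9.58 to 10.35 in AIRmax mice (median 10.02), against 8.55 to 9.82 in AIRmin mice (median 8.84), a difference of 0.99 ± 0.07 (adjusted p = 1.03e-08). Probe 3 lay at 8.80 to 9.37 in AIRmax and 8.59 to 9.41 in AIRmin mice, a difference of 0.14 ± 0.08 that did not pass (adjusted p = 0.291). So the probes of this gene disagreed, and its difference is uncertain in size.

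The AIRmin mice fell into 2 levels at Srxn1 probe 1, while the AIRmax mice did not. In 6 AIRmin mice it lay at 8.34 to 8.73, and in the other 6 at 9.82 to 10.72, with no mouse between. In AIRmin urethane mice the 3 low mice were 1 labelled female and 2 labelled male. In AIRmin saline mice the 3 low mice, at 8.51, 8.57 and 8.73, were those labelled female, and the 3 labelled male lay at 10.19, 10.23 and 10.72. At probe 2 only those 3 males, at 9.57, 9.58 and 9.82, stood above the other AIRmin mice, which lay at 8.55 to 9.14. Mouse 20, labelled female but with male-like Xist, was among the low ones at both probes, at 8.57 and 8.76. The fit took a mean for each line, sex and treatment. The standard errors of Srxn1 therefore leave out the step between the labelled sexes in AIRmin saline mice. Over the 12 AIRmin mice the SD was 0.86 at probe 1 and 0.415 at probe 2.

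Mgst1, a microsomal glutathione transferase of abundant expression in liver and lung, also had probes that disagreed. Probe 1 lay at 14.45 to 15.13 on all 24 arrays. Probe 2 lay near background, at 7.42 to 7.68, in 3 AIRmax and 4 AIRmin mice and at 12.34 to 13.67 in the other 17. The low mice were 2 AIRmax urethane, 1 AIRmax saline, 3 AIRmin urethane and 1 AIRmin saline mice, of both labelled sexes. Neither probe passed a test, and probe 2 had a standard error of 1.02 for the line difference.

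**Figure D2:**
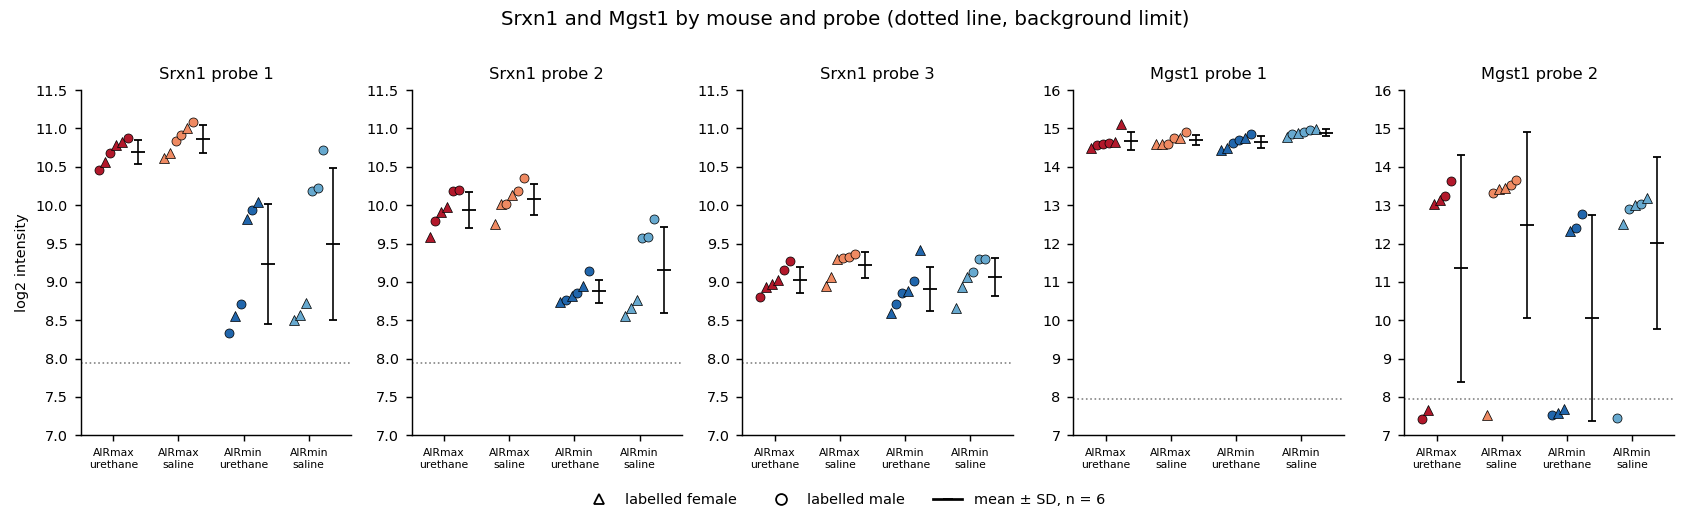
Log2 intensity of the 3 Srxn1 probes and the 2 Mgst1 probes in each mouse, by line and treatment, with the mean and SD of the 6 mice of a group beside them and the background limit dotted. At Srxn1 probe 1 the AIRmin mice form 2 levels, 8.34 to 8.73 and 9.82 to 10.72, and at Mgst1 probe 2 there are 7 mice below the limit.

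Nqo1 and Hmox1, classical NRF2 targets, were lower in AIRmax mice. Nqo1, which reduces quinones by 2 electrons, lay at 8.55 to 8.99 in AIRmax mice (median 8.69), against 8.46 to 9.58 in AIRmin mice (median 9.09), a difference of -0.36 ± 0.09 (adjusted p = 0.0152). No AIRmax mouse lay below every AIRmin mouse. Hmox1, heme oxygenase, lay at 9.64 to 10.60 in AIRmax mice (median 9.90), against 9.99 to 10.57 in AIRmin mice (median 10.36), a difference of -0.36 ± 0.07 (adjusted p = 0.00253). In 2 AIRmax saline mice, both labelled male, Hmox1 reached 10.56 and 10.60, while the other 10 AIRmax mice lay at 9.64 to 10.03. The same 2 mice had macrophage scores, over 6 measured genes, of 0.322 and 0.252, against -0.554 to -0.283 in the other 4 mice of their group. The median macrophage score was -0.29 in AIRmax saline and 0.24 in AIRmin saline mice. In urethane mice it was -0.23 in AIRmax and -0.16 in AIRmin. The part of this score in the Hmox1 difference was not tested. Srxn1, also an NRF2 target, differed in the other direction.

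The regulators themselves did not pass. Nfe2l2 lay at 10.72 to 11.37 in AIRmax mice (median 10.99), against 10.92 to 11.49 in AIRmin mice (median 11.10), a difference of -0.15 ± 0.07 (adjusted p = 0.18). The 4 Keap1 probes differed by -0.06 to 0.07, each with an interval within 0.2 of 0. The second Nfe2l2 probe was not above the limit on any array.

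The glutathione transferases, which join glutathione to electrophiles, differed mostly downwards. Leaving out the microsomal family, 14 members had 21 tested probes, of which 18 had a difference below 0. Of the 21 probes 5 passed, all lower in AIRmax, where 6.65% of all probes passed. Their median difference was -0.15. Gsto1, an omega class member, lay at 13.44 to 13.94 in AIRmax mice (median 13.62), against 13.43 to 14.68 in AIRmin mice (median 14.35), a difference of -0.58 ± 0.09 (adjusted p = 0.000317). A single AIRmin urethane mouse, at 13.43, lay below all AIRmax mice, and the next AIRmin mouse lay at 13.83.

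The alpha class members Gsta2 and Gsta4, of which Gsta4 conjugates the lipid peroxidation product hydroxynonenal, were lower too. Gsta2 lay at 7.69 to 8.77 in AIRmax mice (median 8.01), against 8.27 to 9.66 in AIRmin mice (median 8.78), a difference of -0.72 ± 0.14 (adjusted p = 0.00242). Only 9 of the 12 AIRmax arrays were above the background limit at Gsta2, so its level there is near background. Gsta4 lay at 11.18 to 11.92 in AIRmax mice (median 11.32), against 11.32 to 12.47 in AIRmin mice (median 11.87), a difference of -0.49 ± 0.10 (adjusted p = 0.00297).

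The mu class calls were smaller. Gstm5 differed by -0.23 ± 0.07 (adjusted p = 0.0331), and its call was lost on leaving out any 1 of 10 mice. Gstm2 differed by -0.24 to -0.15 over its 3 probes, and only probe 2 passed, at -0.21 ± 0.06 (adjusted p = 0.0248). Gstm6 reached 10.38 in AIRmax urethane mouse 4, against 9.09 to 9.57 in the other AIRmax mice, and did not pass (difference -0.10 ± 0.10). Mu class genes are close copies, and which of them a probe detects was not tested. Mgst2, a microsomal member that can also form leukotriene C4, lay at 10.59 to 11.11 in AIRmax mice (median 10.97), against 10.76 to 12.03 in AIRmin mice (median 11.37), a difference of -0.41 ± 0.10 (adjusted p = 0.008).

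The other roles gave 1 call. Txnrd2, the mitochondrial thioredoxin reductase, differed by -0.21 ± 0.07 (adjusted p = 0.0436), and the call was lost on leaving out any 1 of 18 mice. Txnrd1, its cytosolic counterpart, was near background, at 7.58 to 8.18 in AIRmax and 7.43 to 8.36 in AIRmin mice, and did not pass. Of the genes of glutathione synthesis, Gclc, the catalytic subunit of the rate-limiting ligase, differed by 0.20 ± 0.08 (adjusted p = 0.0913). Its modifier subunit Gclm differed by -0.10 ± 0.09, and the cystine importer Slc7a11 by -0.13 ± 0.13. Gclc passed without AIRmax urethane mouse 4 (adjusted p = 0.0379) and without mouse 20 (adjusted p = 0.0305).

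No probe of the peroxiredoxins, the pentose phosphate genes or ferritin passed between the lines. The 11 probes of the 6 peroxiredoxins, which reduce peroxides through a reactive cysteine, differed by -0.21 to 0.01, with a smallest adjusted p of 0.0693 for Prdx2. The genes of the pentose phosphate pathway (G6pdx, Pgd, Taldo1, Tkt) differed by -0.16 to 0.12, and none of their 5 probes passed. Fth1, the ferritin heavy chain, lay at 16.01 to 16.10 on all arrays at both probes. That is the top of the scale, as the highest intensity on any array, 70078, is 16.10 in log2. A difference in Fth1 could go unseen there, so the lack of a call does not show equal levels. The only Ftl1 probe was above the limit on no array, so Ftl1 was not measured here.

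**Figure D3:**
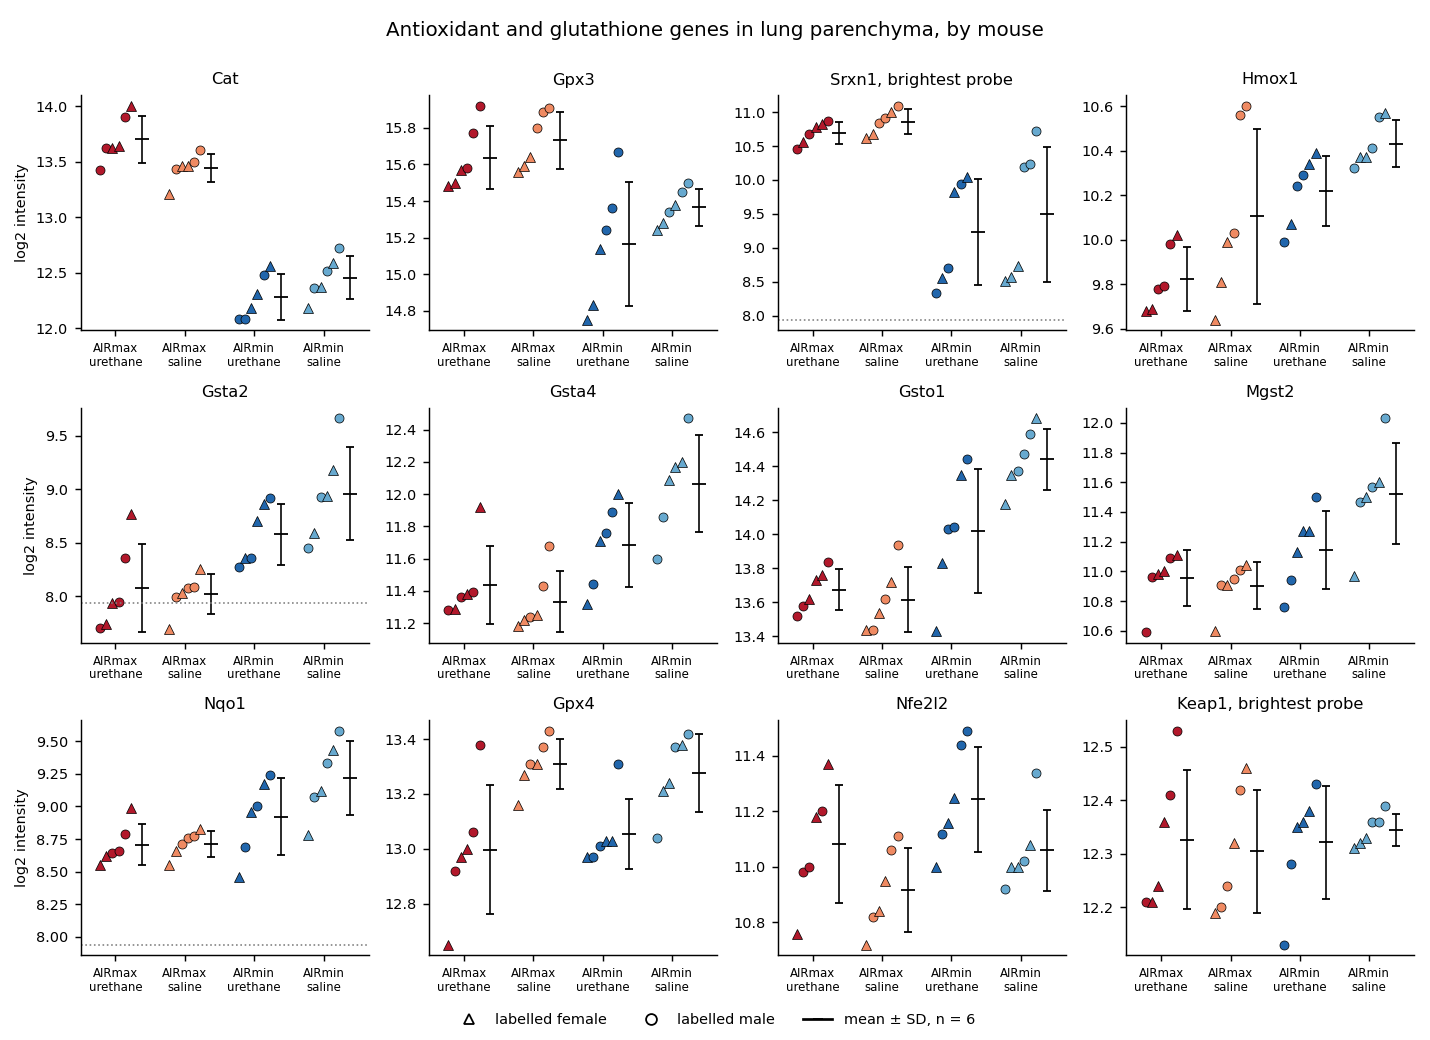
Log2 intensity of 12 members in each mouse, by line and treatment, as triangles for mice labelled female and circles for mice labelled male, with the mean and SD of the 6 mice of a group; a dotted line marks the background limit. Every AIRmax mouse lies above every AIRmin mouse for Cat, and the AIRmin saline mice have the highest group means of Gsta2, Gsta4, Gsto1, Mgst2 and Nqo1.

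The line difference was also taken within each treatment. In urethane mice 5 of 75 member probes passed, against 3.68% of all probes. They were Cat, Srxn1 probes 1 and 2 and Gpx3, higher in AIRmax (1.61% of all probes), and Hmox1, lower (2.07% of all probes). Hmox1 lay at 9.68 to 10.02 in AIRmax urethane mice (median 9.79), against 9.99 to 10.39 in AIRmin urethane mice (median 10.26), a difference of -0.39 ± 0.10 (adjusted p = 0.0361). This call was lost on leaving out any 1 of 8 mice. Srxn1 probe 1 differed by 1.45 ± 0.24, probe 2 by 1.06 ± 0.10 and Gpx3 by 0.47 ± 0.08.

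In saline mice 9 of 75 member probes passed, against 6.82% of all probes. Cat, Gpx3 and Srxn1 probes 1 and 2 were higher in AIRmax, where 3.37% of all probes were, and 5 genes were lower, where 3.44% were. Gsta2 lay at 7.69 to 8.25 in AIRmax saline mice (median 8.06), against 8.45 to 9.66 in AIRmin saline mice (median 8.93), a difference of -0.93 ± 0.20 (adjusted p = 0.00903). Gsto1 lay at 13.44 to 13.94 in AIRmax saline mice (median 13.58), against 14.18 to 14.68 in AIRmin saline mice (median 14.42), a difference of -0.82 ± 0.13 (adjusted p = 0.000666). The ranges of these 2 genes did not overlap between the saline groups, nor did those of Cat and of Gpx3, at 15.56 to 15.91 in AIRmax saline and 15.24 to 15.50 in AIRmin saline mice. Without overlap were 3.46% of all tested probes. Gsta4 differed by -0.73 ± 0.14, Mgst2 by -0.62 ± 0.13 and Nqo1 by -0.50 ± 0.13, with overlapping ranges. The Nqo1 call was lost on leaving out any 1 of 7 mice, with an adjusted p of 0.0802 without mouse 20. Near background the size for Gsta2 depended on the processing, and it was -1.71 with a normexp correction. With tissue scores as covariates, which adjust for tissue content and not for background, Gsta2 was -0.28. Gsta4, far above background, was also -0.28 in that fit. In urethane mice these 5 genes differed by -0.50 to -0.19 and none passed.

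The arrays with squamous epithelium lay mostly in the AIRmin saline group, and its members were read beside the score. In that group 1 mouse, number 18, had a squamous score of -0.18 and the other 5 had scores of 3.51 to 4.50. Mouse 18 was the lowest of the 6 for Gsta2, at 8.45 against 8.59 to 9.66, and for Gsta4, at 11.60 against 11.86 to 12.47. It lay within the range of the others for Gsto1, at 14.37 against 14.18 to 14.68, for Mgst2, at 11.47 against 10.97 to 12.03, and for Nqo1, at 9.07 against 8.78 to 9.58.

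In the urethane groups some values were higher in mice with a high score and others were not. In AIRmax urethane mouse 4, with a squamous score of 4.17 and a hepatocyte score of 5.86, Gsta4 was 11.92, while mouse 2 of that group, with a squamous score of 2.74, had 11.39, next to 11.28 to 11.38 in the 4 mice with scores below 0. Gsto1 and Mgst2 of mouse 4, at 13.62 and 11, lay within the range of its group. Gsta2 was 8.77 in mouse 4 and 8.36 in mouse 2, against 7.7 to 7.95 in the other mice of that group. Nqo1 was 8.99 and 8.79 in these mice, against 8.55 to 8.66 in the others. AIRmin urethane mouse 17, with a score of 3.18, had 11.71 for Gsta4, below 11.76 and 11.89 in 2 mice of that group with scores below 0. Mouse 7 there, with a score of 3.47, had the highest Gsta4 of the group, at 12. Gsta2 and Nqo1 of that group were highest in mouse 15, with a score of -0.08, at 8.92 and 9.24. Mice 7 and 17 followed for Gsta2, at 8.86 and 8.70, against 8.27 to 8.36 in the remaining mice of the group. For Nqo1 mouse 7 was second, at 9.17, and mouse 17 was lowest, at 8.46. The part of the squamous tissue in the lower calls was not tested beyond these values and the fits with scores.

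With the squamous, muscle and hepatocyte scores as covariates, only lower calls were lost over all mice. In saline mice calls in both directions were lost. Calls over all 18224 tested probes fell too, from 2427 to 843 over all mice and from 1242 to 236 in saline mice. Over all mice 7 of the 75 member probes passed. They were Cat, Gpx3 and Srxn1 probes 1 and 2, higher in AIRmax, and Hmox1 (-0.44, adjusted p = 0.0494), Txnrd2 (-0.38, adjusted p = 0.0427) and Gstt1, lower. Gsta2 was -0.35, Gsta4 -0.25, Gsto1 -0.45, Mgst2 -0.15 and Nqo1 -0.26, and none of these passed (adjusted p from 0.13 to 0.631). In saline mice only Cat, at 0.63 (adjusted p = 0.022), and Srxn1 probe 2, at 1.01 (adjusted p = 0.00169), passed. There Gpx3 was 0.29 (adjusted p = 0.244), Srxn1 probe 1 was 0.88 (adjusted p = 0.281), Gsto1 was -0.67 (adjusted p = 0.148), and Gsta2, Gsta4, Mgst2 and Nqo1 lay between -0.31 and -0.28.

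**Figure D4:**
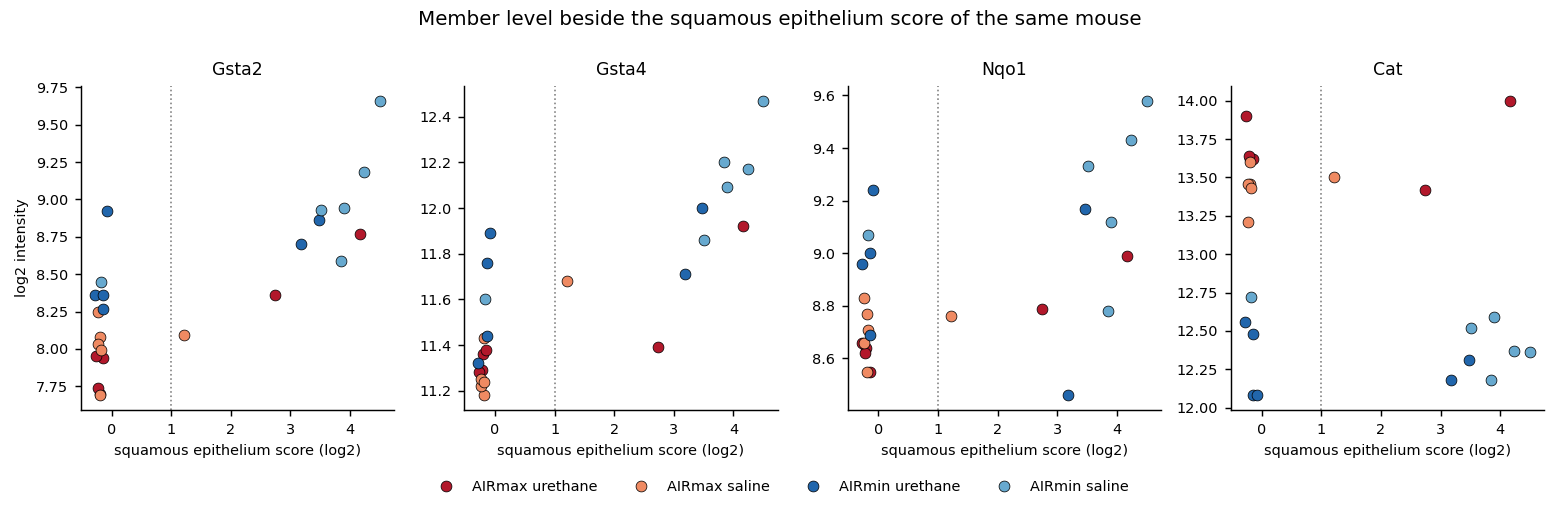
Log2 intensity of Gsta2, Gsta4, Nqo1 and Cat in each of the 24 mice against that mouse's squamous epithelium score (log2 scale, mean over the measured list genes), coloured by line and treatment; the dotted line marks a score of 1. The 5 highest Gsta4 values belong to mice with scores above 3, and Cat parts the lines on both sides of the dotted line.

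No member passed for urethane. Over both lines limma called 0 of the 75 member probes, against 0.73% of all tested probes, and 21 had an unadjusted p under 0.05. Of these 21, 20 were lower in urethane mice and 1, Nfe2l2, was higher. They made up 28.0% of the member probes, against 12.5% of all probes. The median difference of the member probes was -0.09, against -0.01 over all tested probes.

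The smallest adjusted p was that of Gpx4, which reduces lipid hydroperoxides in membranes. Gpx4 probe 1 lay at 12.65 to 13.38 in urethane mice (median 13), against 13.04 to 13.43 in saline mice (median 13.31), a difference of -0.27 ± 0.06 (adjusted p = 0.0575). Of the 12 urethane mice 9 lay below every saline mouse. Its dimmer second probe differed by 0.01 ± 0.05.

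Further members with low p-values were Sod1, G6pdx, Gstm1, Gstp1 and Gpx2. Sod1 lay at 14.40 to 14.72 in urethane mice (median 14.63), against 14.54 to 14.98 in saline mice (median 14.76), a difference of -0.18 ± 0.05 (adjusted p = 0.0835). G6pdx, the first enzyme of the pentose phosphate pathway, differed by -0.19 ± 0.05 (adjusted p = 0.0916). Gstm1 probe 1 differed by -0.31 ± 0.08 (adjusted p = 0.0947), and Gstp1 probe 1, of the pi class, by -0.24 ± 0.06 (adjusted p = 0.0971). Gpx2, the gastrointestinal glutathione peroxidase, which is also expressed in airway epithelium, differed by -0.45 ± 0.13 (adjusted p = 0.127). Nfe2l2 lay at 10.76 to 11.49 in urethane mice (median 11.17), against 10.72 to 11.34 in saline mice (median 11), a difference of 0.17 ± 0.07 (adjusted p = 0.331).

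These counts changed with array weights and with single mice. With array weights, calls over all tested probes rose from 133 to 506, of which 294 were higher and 212 lower in urethane mice. In that fit 9 member probes passed, all lower in urethane mice. They were Gpx4 probe 1, Sod1, G6pdx, Hmox1, Gstm1 probe 1, Gstm5, Gstp1 probes 1 and 2 and Mgst3 probe 2. Leaving out 1 mouse gave 0 to 3 calls, with 3 when AIRmax urethane mouse 4 was left out.

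Within the lines there were also 0 calls. In AIRmax mice limma called 0 of 75 member probes (0.209% of all probes) and 6 had an unadjusted p under 0.05, 8.0% of them against 8.71% of all probes. The smallest adjusted p was 0.21 for Sod1, which lay at 14.40 to 14.72 in urethane and 14.75 to 14.98 in saline mice, without overlap, as for 0.554% of all probes. In AIRmin mice limma called 0 (0.263% of all probes), and 21 had an unadjusted p under 0.05, all lower in urethane mice and 28.0% of the member probes, against 10.7% of all probes. Gpx2 had the smallest adjusted p there, 0.107, at 11.11 to 12.14 in urethane mice (median 11.64), against 11.96 to 12.96 in saline mice (median 12.33), a difference of -0.77 ± 0.18. The AIRmin saline mice of this comparison are also those of the line difference in saline mice, and 5 of them had a squamous score above 1, against 2 of the 6 AIRmin urethane mice.

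**Figure D5:**
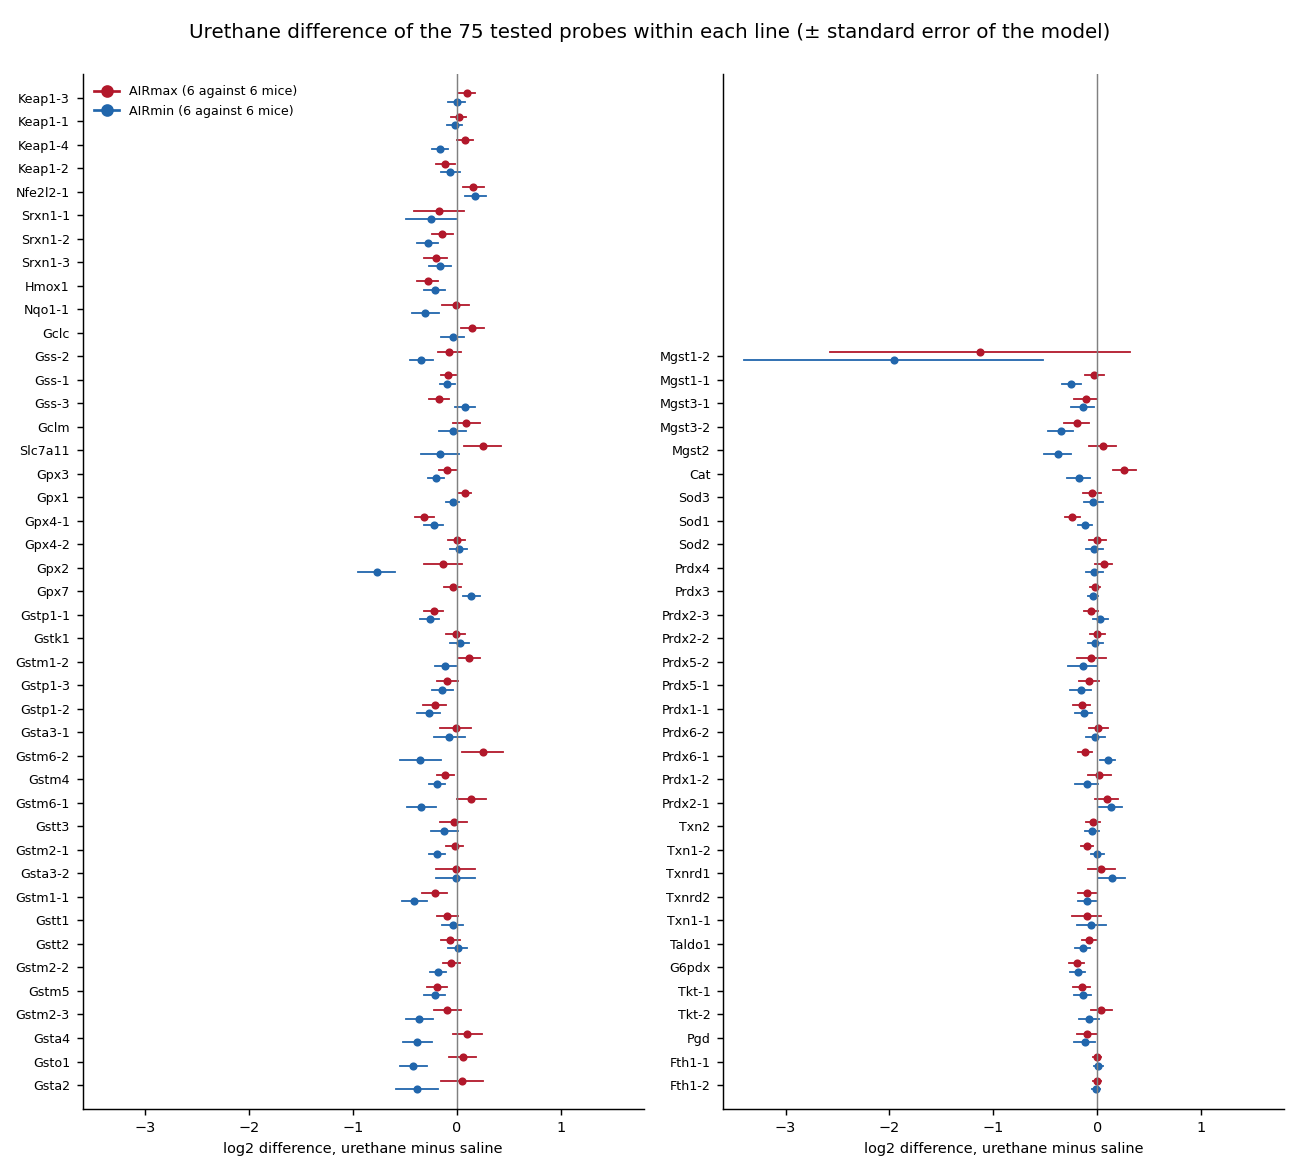
Urethane difference (log2, urethane minus saline) of the 75 tested member probes in AIRmax (red, upper point) and AIRmin mice (blue, lower point), with the standard error of the model. Most AIRmin points lie left of 0, Gpx2 at -0.77, and no point passed an adjusted p of 0.05.

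The urethane difference was not shown to differ between the lines for any member. The interaction called 0 member probes, as it called 0.0% of all tested probes, and 8 member probes had an unadjusted p under 0.05, 10.7% of them against 6.33% of all probes. Cat had a urethane difference of 0.26 ± 0.11 in AIRmax and -0.18 ± 0.11 in AIRmin mice, which differ by 0.43 ± 0.15 (adjusted p = 0.664). Gsto1, Gsta4 and Mgst2 had interactions of 0.43 to 0.48 with adjusted p-values of 0.664 to 0.74. In simulated data with this spread, 47.0% of interactions of 0.5 and 88.0% of those of 1 were recovered. For the urethane difference over both lines the shares were 90.5% and 99.0%. Many changed probes were planted together in those data, which eases the adjustment, so recovery may be lower where few probes change.

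Between the labelled sexes 2 member probes passed, both lower in mice labelled female, against 0.115% of all probes. Srxn1 probe 2 lay at 8.55 to 10.13 in females (median 9.26), against 8.76 to 10.35 in males (median 9.80), a difference of -0.38 ± 0.07 (adjusted p = 0.032). Gpx3 lay at 14.75 to 15.64 in females (median 15.43), against 15.24 to 15.92 in males (median 15.62), a difference of -0.29 ± 0.06 (adjusted p = 0.0413). At Srxn1 probe 2 the labelled sexes parted only in AIRmin saline mice, at 8.55 to 8.76 in those labelled female and 9.57 to 9.82 in those labelled male. The 8.76 was that of mouse 20, with male-like Xist and Y-linked genes, so the step followed the labels and not these genes. In each other group the labelled sexes overlapped. Over the alternatives the sex difference of Srxn1 probe 2 was -0.51 to -0.10, with limma adjusted p-values up to 0.806. Both Srxn1 probe 2 and Gpx3 passed without mouse 20, at -0.40 and -0.30. The Srxn1 call was lost on leaving out any 1 of 11 mice and the Gpx3 call on leaving out any 1 of 18.

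Of a longer list of 140 other NRF2, glutathione and redox genes, 120 were tested, of which Aldh1a1, Cbr2 and Trf also stood in the marker lists. For the line difference over all mice 24 of the 120 passed by their brightest probe, 12 higher and 12 lower in AIRmax, against 6.67% higher and 6.65% lower of all tested probes. Glo1, glyoxalase I, which clears methylglyoxal with glutathione, averaged 13.37 ± 0.34 in AIRmax and 14.55 ± 0.20 in AIRmin mice (SD, n = 12 each), a difference of -1.18 ± 0.09 (adjusted p = 5.57e-08), with no overlap. The other large lower calls were Gsta1, Txnrd3, Akr1e1, Slc1a1 and Aox3, at -0.83 to -0.42. Gsta1 averaged 7.69 in AIRmax mice, below the background limit, and 8.52 in AIRmin mice, so its size is uncertain. The large higher calls were Rpe, of the pentose phosphate pathway, at 1.34 ± 0.27, and Esd, which hydrolyses S-formylglutathione, at 1.21 ± 0.17 by its brightest probe. The other 3 Esd probes differed by 0.01 to 0.05. Slc1a4, Alox5ap, Ptges and Selenow followed at 0.76 to 0.38. A second, dimmer Ptges probe differed the other way, by -0.21 ± 0.08, and did not pass (adjusted p = 0.0961).

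For urethane 2 of these 120 genes passed, both higher in urethane mice and in each line, where 0.73% of all probes passed over both lines. Ephx1, microsomal epoxide hydrolase, averaged 14.82 ± 0.18 in urethane and 14.05 ± 0.17 in saline mice (SD, n = 12 each), a difference of 0.77 ± 0.06 (adjusted p = 4.65e-07). At Ephx1 the lowest urethane mouse was above the highest saline mouse, and 0.0713% of all probes parted the treatments. Its difference was 0.82 ± 0.09 in AIRmax and 0.72 ± 0.09 in AIRmin mice. Sesn2, a stress-induced sestrin, averaged 9.63 ± 0.26 in urethane and 8.85 ± 0.28 in saline mice, a difference of 0.78 ± 0.09 (adjusted p = 4.34e-05). It was 0.71 ± 0.12 in AIRmax and 0.84 ± 0.12 in AIRmin mice, and its second probe differed by 0.35 ± 0.05 over both lines. None of the 120 passed for the interaction or between the sexes.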

How the data were processed

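Lung RNA of 24 mice was hybridised to Illumina bead arrays. The authors' deposited value table holds linear intensities, found from their sorted values, which differed by at most 0.871% between arrays, to be quantile normalized. Their median was 370.5 and their range 104.7 to 70078, with no background subtracted. The submitters' processing notes name BeadStudio, and no version or background step is given in the sources used here. The 72 per-array columns of the other deposited tables carry slide names that fit no label and stayed out, so slide was not available as a batch.

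Values were taken as log2. The background limit was the upper 0.01 quantile of a normal with the mode of all log2 values (7.42) and an SD of 0.22 from the values below it. It stands in for the deposited detection p-values, which could not be matched to mice. Differences were fitted with limma 3.58.1 in R 4.3.3, as 8 means of line, sex and treatment with 3 mice each and 16 residual degrees of freedom, over 18224 probes, with Benjamini-Hochberg adjustment and a call at an adjusted p under 0.05. Simulated data had the same spread and many changed probes planted together. There 98.5% of line differences of 1 and 91.5% of those of 0.5 were recovered. Precision rests on the number of mice. Array correlations were 0.933 to 0.994.

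For a tissue score, each list gene was centred on its median across mice (log2) and the centred values were averaged. The members and lists were chosen with earlier results of these data known. Members with a call, and Nfe2l2, Keap1, Nqo1, Hmox1, Gclc, Gclm, Txnrd1, Srxn1, Cat, Sod1, Sod2, Sod3 and Slc7a11, have values per group. Of the 140 other genes, up to 6 calls per direction are named. Other members were named in the text after their values were seen, where their p was among the smallest or their probes disagreed. Alternatives were no filter, a filter at 12 arrays, an offset of 16, normexp, array weights, median centring, a trended robust prior, fits of only the arrays compared or without sex, tissue scores as covariates, an additive model without the arrays of squamous score above 1, and each mouse left out. The squamous score alone as a covariate was added after seeing the data.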

Additional observations from a re-analysis of the deposited data

Results flagged for a closer look

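Within groups of 6, 88 sets of values of 22 member probes were screened, and in 5 of them 1 mouse stood far from the other 5. Chance alone gives about 1 in 20 groups. In AIRmax urethane mouse 4, whose squamous score was 4.17 and hepatocyte score 5.86, Gsta4 was high at 11.92, against 11.28 to 11.39 in the other mice. The same mouse was low for Sod3, at 11.78 against 12.23 to 12.48. Mgst2 was low in AIRmax urethane mouse 1, at 10.59 against 10.96 to 11.11, and in AIRmax saline mouse 11, at 10.6 against 10.91 to 11.04. Txnrd1 was low in AIRmin saline mouse 23, at 7.43 against 7.93 to 8.21, all near the background limit.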

How the results depend on the processing

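There were 51 single-member results with 1783 values under their alternatives. Of these values 1615 kept direction and side of the threshold, 118 lost a call, 43 changed sign and the rest gained a call. Calls of Cat and Srxn1 probe 2 between the lines were kept under all 35 alternatives. For the line difference over all mice, 13 member probes became 7 with the 3 tissue scores as covariates and 5 in the additive model without the arrays of squamous score above 1. Over all tested probes 2427 calls became 843 and 729 in these fits. Srxn1 probe 1 lost its call in that additive model (1.007, adjusted p = 0.0956). Leaving out 1 mouse gave 11 to 18 calls over all mice, 4 to 5 in urethane mice and 8 to 12 in saline mice. In saline mice 9 calls became 18 with array weights, 2 with the tissue scores and 3 with the squamous score alone. Over all tested probes 1242 calls became 3051, 236 and 280 in the same fits. For urethane over both lines 0 became 9 with array weights, 1 with the trended robust prior, 1 with the tissue scores and 1 with the squamous score alone, and 0 to 3 on leaving out 1 mouse. Urethane in AIRmin gave 1 with array weights and 0 to 1 on leaving out 1 mouse. Urethane in AIRmax and the interaction gave 0 under every alternative run. The 2 sex calls became 1 with normexp, 0 with the squamous score, 0 in the additive model and 0 to 2 on leaving out 1 mouse. The cause was not tested.

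The sign changes are of values near 0 that never passed. For the line difference the squamous score gave 0.026 for Gclm and 0.064 for Slc7a11. The tissue scores gave 0.054 for Nfe2l2, 0.018 for Slc7a11 and 0.078 for Txnrd1. Keap1 probe 1 was 0.001 with array weights, 0.005 in the additive model and -0.036 to 0.005 on leaving out 1 mouse, and Sod2 was -0.041 to 0.009. For urethane, array weights gave -0.023 for Cat, -0.018 for Slc7a11 and 0.007 for Sod3. The tissue scores gave -0.073 for Cat, -0.009 for Gclm, 0.013 for Keap1 probe 1 and 0.017 for Sod3. Median centring gave 0.002 for Keap1 probe 1, and the additive model gave -0.015 for Slc7a11 and 0.052 for Sod3. On leaving out 1 mouse the urethane difference was -0.022 to 0.072 for Gclm, -0.02 to 0.02 for Keap1 probe 1, -0.023 to 0.108 for Slc7a11 and -0.041 to 0.009 for Sod2.

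Over all tested probes the calls were 2427 between the lines, 671 in urethane and 1242 in saline mice, 133 for urethane, 38 in AIRmax and 48 in AIRmin, and 21 for sex. Array weights gave 3756 between the lines, 3051 in saline mice, 506 for urethane, 71 in AIRmax, 179 in AIRmin and 77 for sex. The tissue scores gave 843 between the lines, 236 in saline mice and 30 for urethane in AIRmin. The squamous score gave 280 in saline mice, 26 for urethane in AIRmin and 13 for sex. The additive model gave 729 between the lines, 23 for urethane and 8 for sex. Fitting only the arrays compared gave 342 for the line in urethane mice and 20 for urethane in AIRmax. No paired analysis was possible because no mouse number occurs in 2 groups. Values near the background limit, as for Gsta2 and Txnrd1, have limited precision.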
